A study of Homo sapiens with 12 samples.

Results

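The genes described here are 10 transcriptional targets and feedback regulators of extracellular signal-regulated kinase (ERK), whose transcripts are used as readouts of ERK activity. They are the phosphatases DUSP4, DUSP5 and DUSP6, the Sprouty genes SPRY2 and SPRY4, the Sprouty-related genes SPRED1 and SPRED2, the ETS-family transcription factors ETV4 and ETV5, and PHLDA1. They were chosen by gene name from the Huh7 table, in which each name matched 1 of 60666 listed genes, and 10 of 10 passed the filter on low values that left 14394 genes to test. Huh7 is an established human hepatocellular carcinoma (HCC) line. The control group (NC) carried a lentiviral control construct and the shFAM111B group a lentiviral shRNA against FAM111B, both of them puromycin-selected lines grown in high-glucose DMEM with serum. Each group had 3 libraries, a single shRNA sequence was used, and the labels do not say whether the libraries of a group came from separate cultures, so the p-values measure only the spread between these libraries. The sequence of the control construct is not given in the sources used here, and libraries of Hep3B, the series' other HCC line, were not analysed.

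ERK is the last kinase of the RAS-RAF-MEK-ERK cascade that growth factor receptors switch on. Active ERK enters the nucleus, phosphorylates ETS-family factors and releases genes from the repressor Capicua, and many of the genes it induces act back on the cascade. DUSP phosphatases remove the activating phosphates from MAP kinases, Sprouty and SPRED proteins restrain RAS and RAF activation at the membrane, and ETV4 and ETV5 carry the transcriptional response further. In HCC cells the cascade lies below receptors such as FGFR4 and EGFR, and lenvatinib inhibits several receptor tyrosine kinases above it.

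The 19-base target of the shRNA, CTGCCTAGTGATTCTCATT, lies in the coding sequence of FAM111B in exon 4 of 4 of FAM111B-201 (GRCh38, chr11:59124545-59124563, plus strand), and a search of both strands of the GENCODE v29 transcripts found it in 1 gene only. FAM111B had 7.84, 8.29 and 7.99 TPM (a level per transcript length, scaled to a fixed total per library) in the control libraries and 0.96, 1.13 and 0.84 TPM in the shFAM111B libraries. TPM hold no sequencing depth, so the depth behind the values is unknown. The composition of the total differed between the groups, and its part in the results below was not tested. Mitochondrially encoded transcripts made up 19.67% to 20.25% of the TPM in the control libraries and 7.37% to 8.06% in the shFAM111B libraries. Small non-coding RNAs made up 0.17% to 0.49% in the control libraries. In shFAM111B replicates 1, 2 and 3 they made up 4.77%, 7.06% and 0.51%, so that replicate 3 lay close to the control libraries. The median tested gene had a log2 fold change of -0.36 with the TPM as deposited and of -0.49 to 0.17 under 5 other treatments of the values, so each member's difference from it is also given. With calls made at 2-fold and P under 0.05, 3409 genes were lower and 981 higher in shFAM111B cells (22.3% of the calls higher), against 1798 lower and 2030 higher (53.0% higher) after median-of-ratios scaling. The 10 markers of hepatocytes and liver cancer were expressed in both groups, with summed TPM of 27950 to 28520 in the control and 41570 to 46540 in the shFAM111B libraries. Of the 10, 6 were lower and 4 higher at P under 0.05 (limma), beside 52.0% and 22.1% of all tested genes. Past 2-fold as well, APOB (log2 fold change -2.27) and HNF4A (-1.25) were lower, beside 23.7% of all tested genes. AFP (1.66), APOA1 (1.11) and TTR (1.04) were higher past 2-fold, beside 6.82%. Markers of other cell types were summed in the same way. The 5 fibroblast genes had 8.91 to 10.65 TPM in the control and 12.33 to 17.67 TPM in the shFAM111B libraries. The 3 endothelial genes had 1.26 to 2.29 TPM in the control and 2.15 to 3.49 TPM in the shFAM111B libraries. The 3 leukocyte genes had 15.13 to 18.58 TPM and 21.88 to 23.5 TPM, of which CD68 made up most in each library of both groups. DCN, VWF, CDH5 and CD3E had at most 0.13 TPM in any library, whereas COL1A2 had 6.68 TPM in the control and 10.1 TPM in the shFAM111B libraries on average, PDGFRB 1.95 and 3.38 TPM and PECAM1 1.82 and 2.73 TPM, and PTPRC reached 2.39 TPM in control replicate 3. The part of these markers in the results was not tested.

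Short windows upstream of the start sites are shown for the 3 members that fell past the 2-fold threshold, because the results turn on them. Each window runs from 150 bases before to 30 bases after a RefSeq start (GRCh38.p14, minus strand, written 5′ to 3′ along the gene). Capitals mark matches, on either strand, to the ETS core CCGGAA, the AP-1 site TGANTCA, the cAMP response element TGACGTCA, the Capicua octamers TCAATGAA, TCAATGGA, TGAATGAA and TGAATGGA, or the CArG box bound by serum response factor.
PHLDA1, chr12:76031747-76031926: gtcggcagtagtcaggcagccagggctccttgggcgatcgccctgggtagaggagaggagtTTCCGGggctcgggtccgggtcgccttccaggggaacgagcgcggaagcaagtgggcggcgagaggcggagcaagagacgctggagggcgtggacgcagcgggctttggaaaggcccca
SPRED2, chr2:65366749-65366928: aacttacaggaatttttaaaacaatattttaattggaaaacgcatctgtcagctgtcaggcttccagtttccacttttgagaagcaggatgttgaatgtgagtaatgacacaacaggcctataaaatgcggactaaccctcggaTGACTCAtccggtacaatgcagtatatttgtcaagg
DUSP6, chr12:89352472-89352651: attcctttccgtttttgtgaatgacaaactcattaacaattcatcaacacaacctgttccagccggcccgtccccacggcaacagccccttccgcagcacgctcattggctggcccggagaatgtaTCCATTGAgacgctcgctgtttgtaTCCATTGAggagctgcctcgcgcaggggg

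The DUSP6 window held 2 Capicua octamers in the same orientation, at bases -24 to -17 and 2 to 9 counted from the start. A Capicua octamer occurs in 3.77% of the 35116 RefSeq windows of 300 bases. The ETS core in the PHLDA1 window lay at bases -89 to -84, and this motif occurs in 17.2% of all windows. The AP-1 site of the SPRED2 window spanned bases -6 to 1, a second lay at bases 35 to 41 beyond the stretch shown, and 7.71% of all windows hold one. The PHLDA1 and DUSP6 starts shown lie 2.16 kb and 0.77 kb inside the annotated 5′ ends of their genes. The SPRED2 start shown lies 65.9 kb inside the gene. Its other RefSeq start lies 38 bases from the annotated 5′ end of the gene, none of these motifs was found in that window, and TPM summed over the gene do not say which start was used. RefSeq windows were matched for 6 of the 10 members (9 windows), and the only other match among them was an ETS core of SPRY2 at bases -142 to -137. No window was matched for DUSP4, DUSP5, ETV4 and ETV5 in the sources used here. A match of letters is a description of the window and not evidence that a factor binds there.

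**Figure D1:**
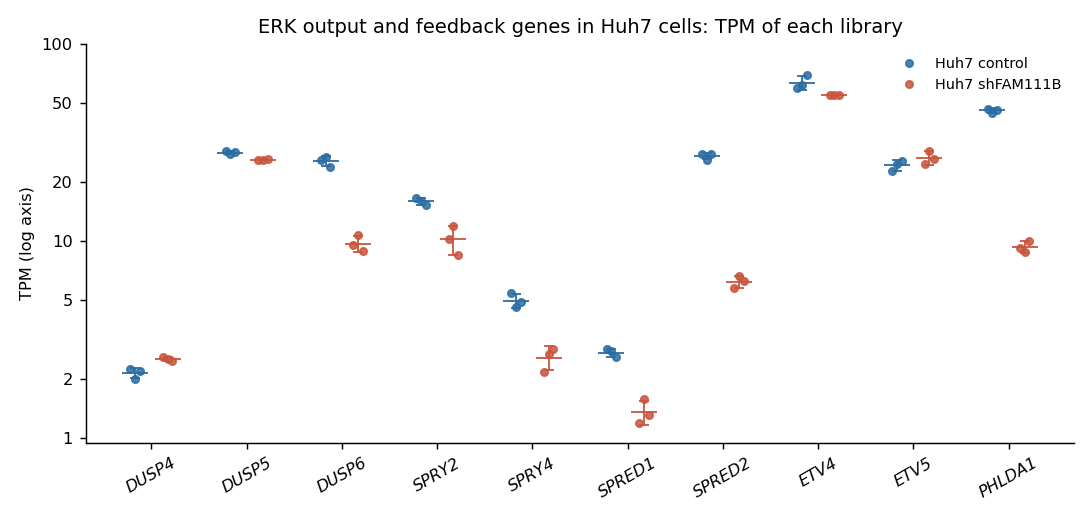
TPM (log axis) of the 10 genes in each Huh7 library, with points for single libraries and bars for the mean and SD of 3 control and 3 shFAM111B libraries. PHLDA1, SPRED2 and DUSP6 stand well apart between the groups, whereas the DUSP5, ETV4 and ETV5 points lie close together.

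The lowest values relative to control were those of PHLDA1, SPRED2 and DUSP6, which fell to 20.3%, 23.1% and 38.1% of their mean control TPM after FAM111B knockdown. None of the 10 genes rose past 2-fold. These 3 of 10 lower genes compare with 23.7% of all tested genes called lower, and the 0 of 10 higher with 6.82% called higher, so the share of called members is near the background. Calls were made with limma's moderated test, and at P under 0.05 with no limit on the fold 7 members were lower (52.0% of all tested genes) and 0 higher (22.1%). The median log2 fold change of the 10 genes was -0.63, against -0.36 over all tested genes.

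PHLDA1 (GRCh38, chr12:76025447-76033932, minus strand), a pleckstrin-homology-like protein that is among the transcripts most used to read ERK output, had 46.96, 44.71 and 46.28 TPM in the control libraries and 9.19, 8.79 and 10.04 TPM in the shFAM111B libraries. The groups lay far apart. On the log2(TPM + 1) scale, used for each fold change here, it differed by -2.19 (95% confidence interval -2.35 to -2.02, standard error 0.071, Benjamini-Hochberg adjusted p = 2.46e-06 in limma's moderated test), or by -1.82 relative to the median gene. The fall stayed beyond 2-fold under each of the 5 other treatments of the values, from -2.33 after rescaling over protein-coding nuclear genes to -1.28 once a trend fitted over length and level was removed. The libraries are bulk RNA, so fewer expressing cells and less RNA per cell cannot be told apart.

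SPRED2 (chr2:65310851-65432637, minus strand), which recruits neurofibromin to the membrane and so restrains RAS, had 27.56, 25.87 and 27.53 TPM in the control and 5.79, 6.64 and 6.26 TPM in the shFAM111B libraries. Every shFAM111B library was below every control library. The log2 fold change was -1.95 (95% confidence interval -2.14 to -1.76, standard error 0.0796, adjusted p = 3.2e-06 in limma's test), -1.59 relative to the median gene, and it stayed between -2.10 and -1.33 under the other treatments of the values.

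SPRED1 (chr15:38252326-38357249, plus strand), its close relative with the same action on RAS, was the lower of the pair. It had 2.82, 2.76 and 2.57 TPM in the control and 1.19, 1.57 and 1.31 TPM in the shFAM111B libraries. The groups did not overlap and the mean TPM was 49.9% of the control mean, but on the log2(TPM + 1) scale, which understates changes of low genes, the SPRED1 difference of -0.66 (95% confidence interval -0.96 to -0.36, adjusted p = 0.00256 in limma's moderated test), or -0.30 relative to the median gene, missed the 2-fold threshold. With the joint length-and-expression trend removed the SPRED1 value was 0.17 and with the library medians subtracted it was -0.13, neither past P under 0.05 in limma's test.

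DUSP6 (chr12:89347232-89353271, minus strand), the cytoplasmic phosphatase selective for ERK, had 25.90, 26.58 and 23.76 TPM in the control and 9.50, 10.67 and 8.89 TPM in the shFAM111B libraries. The groups did not overlap. The log2 fold change was -1.31 (95% confidence interval -1.52 to -1.09, adjusted p = 1.73e-05 from limma's moderated test), and -0.95 relative to the median gene. DUSP6 was no longer 2-fold lower after median-of-ratios scaling (-0.88), quantile normalization (-0.81), subtraction of the library medians (-0.77) or removal of the length-and-expression trend (-0.65), although it remained lower in each.

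DUSP5 (chr10:110497838-110511544, plus strand), a nuclear ERK phosphatase, had 28.57, 27.53 and 28.22 TPM in the control and 25.87, 25.80 and 25.94 TPM in the shFAM111B libraries. The groups did not overlap, yet the difference was small, with a log2 fold change of -0.12 (95% confidence interval -0.24 to 0.01, adjusted p = 0.0953 in limma's moderated test). DUSP5 lay 0.25 above the median gene, and its sign turned under 4 other treatments, among them median-of-ratios scaling (0.32, past P under 0.05), while 2 pseudogenes of DUSP5 are annotated whose reads the counting may have shared with it. DUSP4 (chr8:29333064-29350668, minus strand), a nuclear phosphatase of ERK and other MAP kinases, was the lowest of the 3, with 2.24, 2.00 and 2.18 TPM in the control and 2.57, 2.53 and 2.46 TPM in the shFAM111B libraries. It was the only member with every shFAM111B library above every control library, which holds for 22.5% of all tested genes. The DUSP4 log2 fold change was 0.17 (95% confidence interval -0.10 to 0.43, adjusted p = 0.224 in limma's moderated test) and did not pass the test, and it lay 0.53 above the median gene. It was higher at P under 0.05 under 4 of the 5 other treatments of the values, from 0.48 after quantile normalization to 0.84 with the length-and-expression trend removed, and 0.08 after rescaling over protein-coding nuclear genes.

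The Sprouty genes, whose products are adaptors induced by and acting against receptor signalling, were lower without reaching 2-fold. SPRY2 (chr13:80335976-80340951, minus strand) had 16.56, 15.93 and 15.27 TPM in the control and 10.25, 11.94 and 8.46 TPM in the shFAM111B libraries, a difference of -0.60 on the log2 scale (95% confidence interval -0.90 to -0.31, adjusted p = 0.00342 in limma's moderated test). Its shFAM111B libraries were the most spread of all members in TPM apart from those of ETV5, with an SD of 1.74 TPM against 2.14 TPM. SPRY4 (chr5:142310427-142326455, minus strand) had 5.44, 4.65 and 4.88 TPM in the control and 2.16, 2.68 and 2.84 TPM in the shFAM111B libraries, a difference of -0.75 on the log2 scale (95% confidence interval -1.05 to -0.45, adjusted p = 0.00131 in limma's test). Neither gene's groups overlapped. Relative to the median tested gene the SPRY2 and SPRY4 differences were -0.24 and -0.39. SPRY2 no longer passed P under 0.05 under 4 of the 5 other treatments, with values from -0.27 (length-and-expression trend removed) to -0.07 (library medians subtracted). SPRY4 did not pass it under 2 of the 5, at -0.05 with that trend removed and -0.22 with the library medians subtracted. SPRY4-AS1 is annotated on the opposite strand of SPRY4 and had 1.03 to 2.67 TPM across the libraries, and whether the counting used strand is not given in the sources used here.

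ETV4 and ETV5, PEA3-group ETS factors that ERK both induces and activates, had small differences whose sign or test followed the scaling. ETV4 (chr17:43527844-43579620, minus strand) was the highest of the 10 transcripts in both groups, with 59.69, 62.18 and 69.35 TPM in the control and 55.11, 54.86 and 55.11 TPM in the shFAM111B libraries. Its log2 fold change was -0.21 (95% confidence interval -0.36 to -0.05, adjusted p = 0.0248 in limma's moderated test), and it was 0.24 after median-of-ratios scaling and 0.33 with the library medians subtracted, so its direction follows the scaling, and it lay 0.16 above the median gene. DHX8 overlaps ETV4 on the opposite strand and had 17.97 to 21.48 TPM in the control and 18.4 to 18.5 TPM in the shFAM111B libraries. ETV5 (chr3:186046308-186110318, minus strand) had 22.62, 24.66 and 25.42 TPM in the control and 24.53, 28.76 and 26.04 TPM in the shFAM111B libraries. It was the only member whose groups overlapped, with a log2 fold change of 0.12 (95% confidence interval -0.07 to 0.31, adjusted p = 0.225 in limma's moderated test), 0.48 above the median gene. The ETV5 value was -0.002 after rescaling over protein-coding nuclear genes, and under the other 4 treatments it was higher at P under 0.05, from 0.55 after quantile normalization to 0.71 with the length-and-expression trend removed. A fall of ETV4 or ETV5 as large as that of DUSP6 lies outside these intervals on the scale of the deposited TPM.

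**Figure D2:**
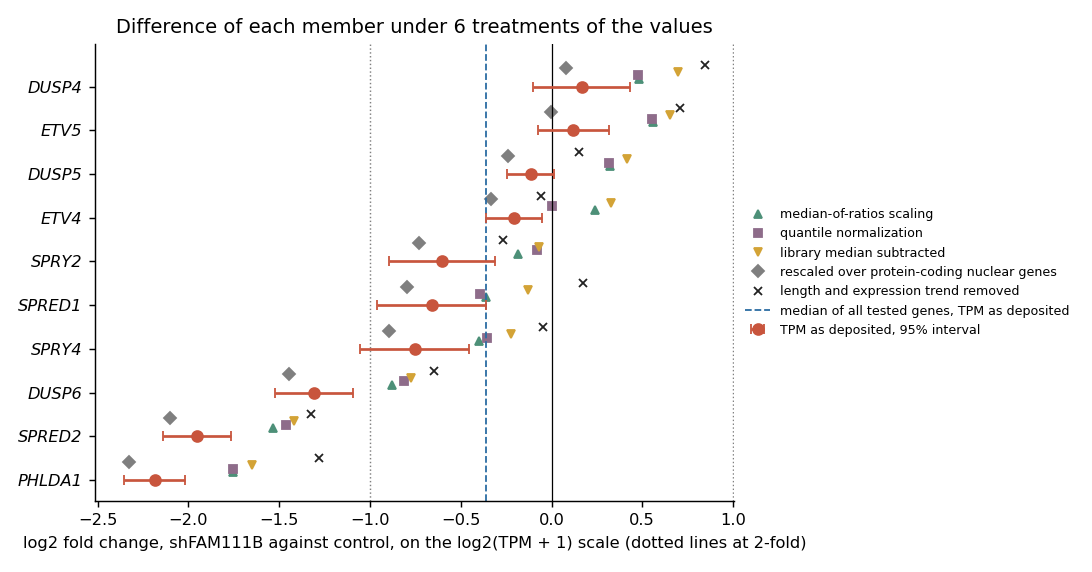
Log2 fold change of each gene, shFAM111B against control, on the log2(TPM + 1) scale, with the 95% confidence interval for the TPM as deposited and small marks for 5 other treatments of the values. PHLDA1 and SPRED2 lie left of the 2-fold line under each of the 6, DUSP6 under 2 of them, and DUSP5, SPRED1, ETV4 and ETV5 have marks on both sides of 0.

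Across the 10 genes, 8 had every shFAM111B library below every control library, compared with 52.8% of all tested genes. At an adjusted p under 0.05 with no limit on the fold, 7 of 10 were lower, against 50.9% of all tested genes, and 0 higher, against 21.1%. This split holds for the TPM as deposited. At P under 0.05 with any fold, 5 members were lower and 4 higher after median-of-ratios scaling (36.5% and 37.2% of all tested genes), and 3 lower and 3 higher with the length-and-expression trend removed (35.8% and 31.6%), where limma was used in each case. The number of members called lower was 3 under 2 of the 6 treatments in the plot of fold changes and 2 under the other 4, and no member was called higher under any of them. The background moved as well, from 23.7% of tested genes called lower with the TPM as deposited to 12.5% after median-of-ratios scaling. It was lowest, at 9.07%, with the library medians subtracted and highest, at 29.2%, after rescaling over protein-coding nuclear genes.

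The order of the levels changed within the group. In control cells ETV4 (63.7 ± 5.02 TPM, SD, n = 3) was followed by PHLDA1 (46.0 ± 1.15 TPM, SD, n = 3), and then by DUSP5, SPRED2, DUSP6 and ETV5, of which neighbouring genes overlapped across libraries at means of 28.1, 27.0, 25.4 and 24.2 TPM. SPRY2, SPRY4, SPRED1 and DUSP4 came below them, with no overlap between neighbours. In shFAM111B cells ETV4 (55.0 ± 0.144 TPM, SD, n = 3) was followed by ETV5 and DUSP5, whose ranges overlapped, and then by SPRY2, DUSP6 and PHLDA1, which overlapped as neighbours at means of 10.2, 9.69 and 9.34 TPM. PHLDA1 thus moved from the second to the sixth place. DUSP4 and SPRY4 overlapped in shFAM111B cells, at 2.52 and 2.56 TPM.

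Summed over the 10 genes, the transcripts made up 238.4, 236.9 and 245.5 TPM in the control libraries and 146.2, 154.2 and 147.3 TPM in the shFAM111B libraries, or 62.1% of the control mean. The ETV factors kept 92.6% of their summed control TPM, the DUSP genes 68.4%, the Sprouty genes 61.1%, the SPRED genes 25.5% and PHLDA1 20.3%. These percentages hold for the TPM as deposited, in which the median tested gene had a log2 fold change of -0.36. The sums were not computed under the other treatments of the values. ETV4 and ETV5 took 34.5% to 38.6% of the 10-gene total in the control and 54.2% to 55.1% in the shFAM111B libraries.

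A ratio between relatives within a library depends on the library's scaling only through the pseudocount, and 5 such log2 ratios of (TPM + 1) were compared. The log2 ratio of DUSP5 to DUSP6 was 0.14, 0.05 and 0.24 in the control libraries and 1.36, 1.20 and 1.45 in the shFAM111B libraries, so that phosphatases of similar level in control cells lay more than 2-fold apart after knockdown. The ratios take no account of transcript length. With the length-and-expression trend removed, the log2 fold changes of DUSP5 and DUSP6 were 0.15 and -0.65. The DUSP4 to DUSP6 ratio went from -3.07 ± 0.121 to -1.60 ± 0.111 (log2, SD, n = 3), and the SPRED1 to SPRED2 ratio from -2.91 ± 0.0811 to -1.62 ± 0.0419 (log2, SD, n = 3). For ETV4 to ETV5 the means were 1.36 ± 0.0566 and 1.03 ± 0.115 (log2, SD, n = 3). The groups did not overlap in these 4 ratios, each of which gave p = 0.1 in a two-sided exact permutation test, the smallest that 3 libraries against 3 allow (adjusted p = 0.125 over the 5 ratios). The SPRY2 to SPRY4 ratio overlapped between the groups, with 1.45, 1.58 and 1.47 in the control and 1.83, 1.81 and 1.30 in the shFAM111B libraries (log2, exact permutation p = 0.4).

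**Figure D3:**
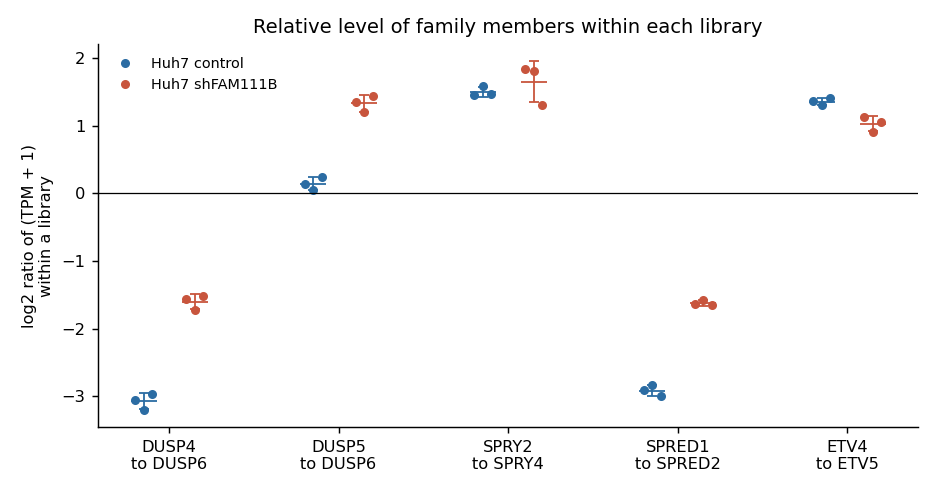
Log2 ratio of (TPM + 1) between relatives within each library, with points for single libraries and bars for the mean and SD of 3 libraries per group. The DUSP and SPRED ratios moved upward by 1.19 to 1.47, the ETV4 to ETV5 ratio downward by less, and the SPRY2 to SPRY4 ratio overlapped.

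The differences of all tested genes followed transcript length, and the members were read against genes of like length. The median log2 fold change was -0.31 for the 5166 tested genes whose longest annotated transcript (GENCODE v29) has over 2000 and up to 4000 nt, -0.78 for the 4346 genes above 4000 and at most 8000 nt, and -0.94 for the 1030 longer genes. SPRED2 (4097 nt) lay at -1.18 relative to the median of its length class, PHLDA1 (8069 nt) at -1.24 and DUSP6 (4400 nt) at -0.53. SPRY4 (5349 nt) and SPRED1 (7780 nt) lay within 0.12 of their class medians, and SPRY2 (2708 nt) at -0.29. DUSP4 (5537 nt) and ETV5 (4111 nt), whose levels barely differed between the groups, lay 0.94 and 0.90 above the genes of their class. ETV4 (2429 nt) and DUSP5 (2557 nt) lay 0.11 and 0.20 above theirs. SPRED2, ETV5 and PHLDA1 lie just above the lower edge of their class, so their values relative to the class median depend on where the classes were cut. The part of transcript length in each difference was not tested, and the longest transcript need not be the one expressed.

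**Figure D4:**
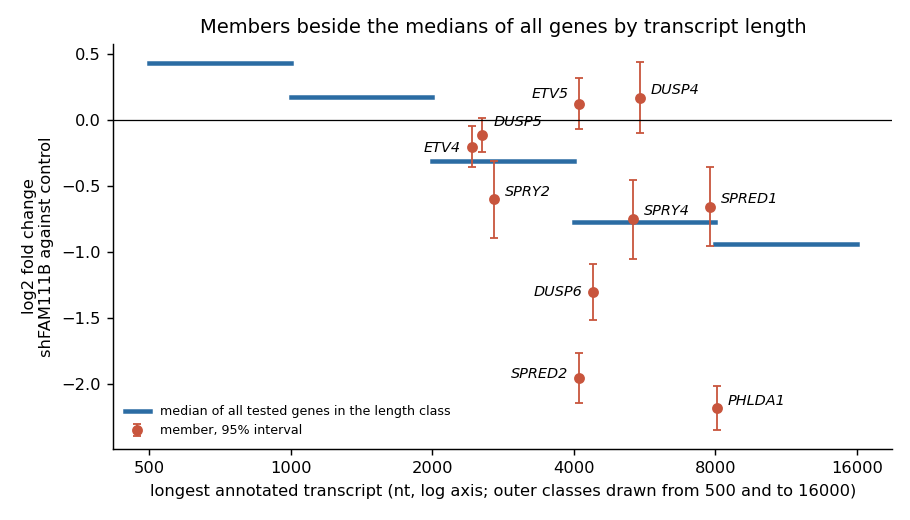
Log2 fold change of each member with its 95% confidence interval against the length of its longest annotated transcript (log axis), beside bars for the median of all tested genes in each length class. PHLDA1, SPRED2 and DUSP6 lie below their class bar, SPRY4 and SPRED1 on or close to it, and DUSP4 and ETV5 above it.

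Of 13 relatives of the members in the same families, 9 were tested, 3 fell and 0 rose (limma's moderated test, with 8 lower and 0 higher at P under 0.05 and any fold), beside 23.7% of all tested genes called lower, 6.82% called higher and 52.0% lower at P under 0.05. The 3 were phosphatases. DUSP8 and DUSP16, which act mainly on JNK and p38, had log2 fold changes of -2.41 and -2.05, and DUSP1, an immediate early phosphatase of several MAP kinases, went from 126.0 ± 5.23 TPM to 25.4 ± 1.13 TPM (SD, n = 3). DUSP8 has 3 annotated pseudogenes and is uncertain. DUSP1, DUSP8 and DUSP16 stayed called under each of the 5 other treatments of the values. Under these treatments the list held 3 or 4 lower genes, beside 9.07% to 29.2% of all tested genes. The median of the tested relatives was -0.73.

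Among 22 other genes known to be induced by ERK, 18 were tested. Of these, 11 fell and 0 rose in limma's moderated test, beside 23.7% and 6.82% of all tested genes. At P under 0.05 with any fold, 15 were lower and 2 higher, beside 52.0% and 22.1% of all tested genes. The median log2 fold change was -1.56, against -0.63 for the 10 members and -0.36 for all tested genes. The largest falls were in ETS2, an ETS factor (log2 fold change -3.26), KLF6, a zinc finger factor of the early response (log2 fold change -3.23), and ERRFI1, an inhibitor of EGFR (-2.30). EGR1, an immediate early factor, followed at a log2 fold change of -2.12. ETS2, KLF6, ERRFI1 and EGR1 stayed called under each of the 5 other treatments of the values. The list held 9 to 12 lower genes under the other treatments of the values, beside 9.07% to 29.2% of all tested genes. It held 1 higher gene only when the library medians were subtracted, where 2597 of all 14394 tested genes were called higher.

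Of the 7 factors through which ERK acts on transcription, 4 fell and 0 rose in limma's moderated test, beside 23.7% and 6.82% of all tested genes. The 4 were ERF, an ETS repressor (log2 fold change -1.96), GABPA (-1.81), ELK4 (-1.23) and CREB1 (-1.01). At P under 0.05 with any fold, 7 of 7 were lower and 0 higher, beside 52.0% and 22.1% of all tested genes. ERF had 21.13, 21.56 and 9.31 TPM in the shFAM111B libraries, so that replicate 3 stood apart from the others. ELK4 and CREB1 lost the call under 4 of the 5 other treatments, median-of-ratios scaling among them, and ERF and GABPA under none. For GABPA 1 pseudogene is annotated, whose reads the counting may have shared with it. Within the cascade 11 of 22 tested genes fell, beside 23.7% of all tested genes, led by PTPN11, the phosphatase SHP2 (log2 fold change -2.40), SOS1, a RAS exchange factor (-2.20), and RPS6KA3, an ERK-activated kinase (-2.19). At P under 0.05 with any fold, 18 cascade genes were lower and 3 higher, beside 52.0% and 22.1% of all tested genes. The 1 cascade gene that rose past 2-fold, beside 6.82% of all tested genes, was HRAS, named here after its value was seen. It had a log2 fold change of 1.46 and a longest transcript of 1233 nt. MAP2K2, the MEK2 kinase, also named after its value was seen, had a log2 fold change of 0.95 and was called higher under 3 of the 5 other treatments. PTPN11, SOS1, RPS6KA3 and HRAS kept their calls under each of the 5. With the length-and-expression trend removed 6 cascade genes were called lower and 2 higher, beside 9.79% and 9.11% of all tested genes. Among 18 receptors and ligands 11 were tested. Of these, 3 fell and 0 rose in limma's moderated test, beside 23.7% and 6.82% of all tested genes. The 3 were EGFR, the FGF19 co-receptor KLB and IGF1R, with log2 fold changes of -1.66, -1.63 and -1.58. None of the 3 stayed called with the length-and-expression trend removed. At P under 0.05 with any fold, 11 of 11 were lower and 0 higher, beside 52.0% and 22.1% of all tested genes. KDR, KIT and RET, also named after their values were seen, were listed at 0 TPM in every library.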

How the data were processed

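RNA sequencing values of 3 control and 3 shFAM111B Huh7 libraries were used, 6 of the 12 libraries in the series. For Huh7 the authors deposited TPM per library, group means, and columns of their own comparison (ratio, log2 ratio, p-values before and after adjustment). The comparison columns and means were not used. Per the labels, RSEM and DESeq2 were used with build hg38, without versions or parameters, and libraries were stranded and poly(A)-selected, whereas the methods name a TruSeq kit. The aligner and annotation are not given in the sources used here.

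Genes reaching 1 TPM in 3 or more libraries were tested. A pseudocount of 1 was added, and log2 values were compared with limma 3.58.1 in R 4.3.3, using a mean-variance trend and no covariate. Benjamini-Hochberg adjustment ran over all 14394 tested genes. Calls needed a 2-fold difference and P under 0.05, which is the study's threshold. The study applied it to its own comparison, so the counts of calls given here are not the study's counts. Fold changes are on the log2(TPM + 1) scale. Within a group, library pairs had Pearson correlations of 0.969 to 0.984, and at most 0.889% of tested genes had identical TPM in 2 libraries, so that none was treated as a duplicate. On simulated data (14394 genes), 197 of 200 genes changed by 1.5 on the log2 scale were called, and 47 unchanged ones.

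The members and lists were chosen with earlier results of these data known. Named genes are the 10 members, FAM111B and up to 5 called genes with the largest change in each list, some of which are not reported here. Lengths and positions come from GENCODE v29 (GRCh38), which holds 96.3% of the listed identifiers. Start-site windows are from RefSeq (GRCh38.p14). Alternatives were no filter, 1 TPM in every library, a pseudocount of 0.1, a replicate block, 4 other scalings, removal of a loess trend with length and expression (span 0.75), adjusted p-values, and each library left out. Tables and figures used Python 3.11.15 with pandas 2.3.3, scipy 1.17.1 and matplotlib 3.10.9.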

Additional observations from a re-analysis of the deposited data

How the results depend on the processing

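The number of members called lower stayed at 2 or 3 and the number called higher at 0 in each alternative with the 2-fold threshold. With no limit on the fold, 7 were lower at an adjusted p under 0.05, beside 50.9% of all tested genes. The background did not stay the same. With the library medians subtracted, 2 members were called lower beside 9.07% of all tested genes. After rescaling over protein-coding nuclear genes, 3 were called lower beside 29.2%. The share of all tested genes called higher was 6.07% after that rescaling and 14.1% after median-of-ratios scaling. PHLDA1, SPRED2, DUSP4, SPRY2 and SPRY4 kept their direction and their side of the 2-fold call in each of the 15 other fits, although SPRY2 and SPRY4 no longer passed P under 0.05 in some, and DUSP4 passed it in others, and DUSP6 kept its direction in each. DUSP5 changed sign with the length and expression trend removed (0.15), after median-of-ratios scaling (0.32), quantile normalization (0.31) and subtraction of the library medians (0.42), ETV4 in the last 3 of these (0.24, 0.0037 and 0.33), SPRED1 with the trend removed (0.17) and ETV5 after rescaling over protein-coding nuclear genes (-0.002). With each library left out in turn, 3 members were called lower and 0 higher, the log2 fold change of PHLDA1 stayed between -2.23 and -2.15, that of SPRED2 between -1.99 and -1.91 and that of DUSP6 between -1.37 and -1.25. The 5 within-library ratios kept their direction without each library and with a pseudocount of 0.1.

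Over all genes, the lower calls were 1396 with the trend removed, 1798 after median-of-ratios scaling, 1849 after quantile normalization, 1305 with the library medians subtracted and 7326 with no limit on the fold. The higher calls were 634 with at least 1 TPM in every library, 2030, 1694 and 2597 under these 3 scalings and 3044 with no limit on the fold. With each library left out in turn they were 3362 to 3554 lower and 918 to 1087 higher. The cause of these shifts was not tested. The labels tie same-numbered libraries by nothing but the number, and no pair's deviations from the group means correlated above 0.1 (0.0349 to 0.0908), so they were not treated as pairs, although 5 of 6 libraries correlated best with their own number. A fit with the replicate block called 3 members lower and 0 higher, and 3410 and 996 of all genes. TPM hold no depth, so no counting error can be given.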
